A study of Mus musculus with 4 samples.

Results

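The CITED and CREB coactivator genes are 10 genes whose products regulate transcription together: the CITED genes Cited1, Cited2 and Cited4, the CRTC genes Crtc1, Crtc2 and Crtc3, the acetyltransferase genes Crebbp and Ep300, and the transcription factor genes Creb1 and Crem. They were chosen because Cited2, Cited4 and Crtc3 were higher in NSN-CCs on these arrays, so the comparison of both types of cumulus cells (CCs) was used to pick them and their values are given as a description, with no test. The signal table holds 15 probes under the names of 7 of the genes, and 4 more probes, which include the single probe of each CRTC gene, carry older names in the table and were assigned through the platform annotation. In all, 19 of 25697 probes, and 10 of 16606 named genes, were members.

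CCs are the somatic cells that enclose the oocyte in the antral follicle. They were removed from oocytes classified by their chromatin: oocytes with a surrounded nucleolus (SN), known to be developmentally competent, gave SN-CCs, and those with a non-surrounded nucleolus (NSN), known to be incompetent, gave NSN-CCs. All donors were B6C3F1 females, 6 weeks old in the sample labels and primed with folligon, a gonadotropin preparation, and no group carried any other treatment. The methods of the study give a range of ages instead, with 6 weeks as its upper end. CCs of many complexes were combined into 2 pools for each type, which the study calls biological replicates, and the RNA of each pool was amplified and read on 1 Illumina mouse BeadChip. One label names oocytes as the tissue, but titles and source names say cumulus cells.

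In cells stimulated by gonadotropins, cyclic AMP activates protein kinase A, which phosphorylates CREB1 on the cAMP response elements (CREs) of its target genes. Phosphorylated CREB1 recruits CBP and p300, the acetyltransferases encoded by Crebbp and Ep300, while the CRTC proteins enter the nucleus after dephosphorylation and bind CREB1 as well. CITED proteins do not bind DNA themselves but dock on CBP and p300, where CITED2 competes with hypoxia-inducible factors (HIF). In granulosa cells, from which CCs derive, this pathway acts on genes of the response to gonadotropins.

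The sequences upstream of the 3 genes that gave the reason for the choice are shown because these genes were higher together, and a reader may ask whether they share a CRE. They are the 250 bases before the start of each gene, 5′ to 3′, from RefSeq on GRCm38.p6: Cited2 at chr10:17722978-17723227 on the plus strand, Cited4 at chr4:120666313-120666562 on the plus strand and Crtc3 at chr7:80688878-80689127 on the minus strand. Capitals mark the motifs searched. On both strands these were the CRE (TGACGTCA), its half-site (TGACG), the core bound by HIF in the form ACGTG only, and the CCAAT box (CCAAT). The TATA box (TATAAA) was searched on the strand of the gene. A CRE contains the half-site, so these 2 motifs overlap.
Cited2: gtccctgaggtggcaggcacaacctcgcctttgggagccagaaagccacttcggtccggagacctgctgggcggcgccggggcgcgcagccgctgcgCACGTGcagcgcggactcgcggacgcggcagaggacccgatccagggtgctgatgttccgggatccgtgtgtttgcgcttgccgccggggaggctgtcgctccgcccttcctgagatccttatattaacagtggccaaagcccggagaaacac
Cited4: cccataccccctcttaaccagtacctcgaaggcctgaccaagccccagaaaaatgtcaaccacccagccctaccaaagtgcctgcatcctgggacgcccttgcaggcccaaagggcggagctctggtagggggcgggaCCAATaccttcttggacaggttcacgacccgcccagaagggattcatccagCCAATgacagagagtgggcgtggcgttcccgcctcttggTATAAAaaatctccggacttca
Crtc3: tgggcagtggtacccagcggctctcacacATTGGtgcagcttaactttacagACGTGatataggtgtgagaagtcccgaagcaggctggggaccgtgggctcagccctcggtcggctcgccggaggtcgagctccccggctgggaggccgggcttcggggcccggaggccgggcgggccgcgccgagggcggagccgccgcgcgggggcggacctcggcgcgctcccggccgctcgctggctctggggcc
None of the 3 windows held a CRE or its half-site, which were present in 1.55% and 17.8% of all 32851 windows of this length. Cited2 held this form of the HIF core on both strands within 1 palindrome, Crtc3 held it once, and 16.6% of all windows held it. Other forms of the HIF core were not searched in any window. Cited4 had a TATA box (7.59% of all windows) that began 22 bases before the start, and CCAAT boxes (33.8% of all windows) that began 112 and 61 bases before it. Crtc3 had 1 CCAAT box, on the opposite strand. Of the other members with a window, Cited1, with 3 annotated starts, had a half-site before 1 of them and a TATA box before each of the others. The window of 1 of these others also held the HIF core in this form and a CCAAT box. None of the 5 motifs was found for Crtc1, Crebbp, Ep300 or Creb1. Crtc2 and Crem were not looked at. A match of letters is a description of the window and not of a bound site.

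The signals below are deposited intensities in arbitrary units, with the background still included. A background limit of 116 to 120, depending on the array, was taken as the 95th percentile among 1341 chemosensory receptor probes, and a probe is called detected here when it was above the limit on all 4 arrays. SN-CCs replicate 2 differed from the rest: 11759 of its probes were above the limit, against 13539 to 13744 on the others, and the median absolute log2 difference between pools of a type, over detected probes, was 0.53 for SN-CCs but 0.10 for NSN-CCs. The fold changes of the members and of the genes named from the lists are therefore also given without this array, a setting that leaves 1 pool of SN-CCs and no measure of their spread. Cyp19a1, the aromatase of granulosa cells, had signals of 10576, 13592, 11581 and 12000 (SN-CCs replicates 1 and 2, then NSN-CCs replicates 1 and 2), whereas Inha, which encodes the inhibin alpha subunit, had 46056, 3760, 45170 and 43879. Oocyte transcripts moved with the type of CCs: the summed signal of 9 oocyte markers was 3488 and 3890 (SN-CCs) against 2724 and 2789 (NSN-CCs), although not every marker followed it (Zp3: 361 and 256 against 310 and 370). Genes of red blood cells went both ways: Hba-a1, a globin, had 12295 and 7965 against 14494 and 15008, and Alas2, the erythroid enzyme of heme synthesis, had 668 and 597 against 442 and 534. Of 5 leukocyte, 5 endothelial and 6 theca and stroma markers 2, 3 and 5 were detected, and their summed signals were 562 to 630, 756 to 781 and 3482 to 4893 in SN-CCs against 601 to 614, 751 to 783 and 3605 to 3645 in NSN-CCs. Ptprc of leukocytes, Kdr and Cdh5 of endothelium and Zp2 of the oocyte were above the limit on no array. The part of these cells in the results below was not tested, and in pools of cells a lower share of one cell type and less RNA per cell cannot be told apart.

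For the comparison, normexp background correction and quantile normalization were applied to the signals, and a log2 fold change is the mean log2 value of NSN-CCs less that of SN-CCs, with its standard error from limma. Of the 19 probes, 10 probes of 8 genes were detected: 1 each of Cited1, Cited2, Cited4, Crtc1, Crtc2, Crtc3 and Ep300, and 3 of Crem. A further 3 were above the limit on 3 arrays and 6 on no array. In 4 of the 10 detected probes, those of Cited2, Cited4, Crtc1 and Crtc3, both pools of NSN-CCs lay above both pools of SN-CCs, and in 0 did they lie below. Over all 10596 detected probes of the array these shares were 16.1% and 28%. Since the genes were picked by this comparison, nothing is read from that difference. The log2 fold change was above 0 for 9 of the detected probes and below 0 for 1, and its median was 0.31, beside -0.13 over all detected probes of the array. Without SN-CCs replicate 2 these medians were 0.52 and -0.0013.

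**Figure D1:**
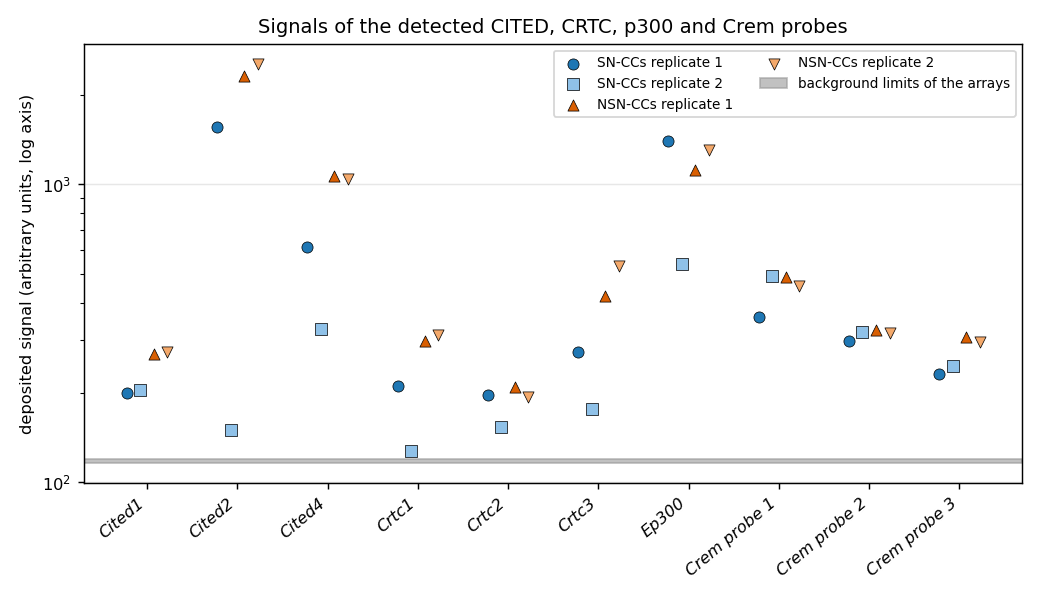
Deposited signal (arbitrary units, log axis) of the 10 detected probes on each of the 4 arrays, with blue for SN-CCs, orange for NSN-CCs and a grey band for the background limits of 116 to 120. In Cited2, Cited4, Crtc1 and Crtc3 both NSN-CCs pools lie above both SN-CCs pools, and Cited2 in SN-CCs replicate 2 (149) lies far below the other 3 arrays.

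Among the CITED genes, Cited2, which is required for heart and adrenal development in the mouse, had signals of 1552 and 149 (SN-CCs) against 2306 and 2535 (NSN-CCs). The pools of NSN-CCs were close to each other, while SN-CCs replicate 2 was near background with 0.0961 times the signal of replicate 1. Normalized log2 values averaged 8.95 ± 2.13 (SD, n = 2 pools) in SN-CCs against 11.30 ± 0.099 (SD, n = 2 pools) in NSN-CCs. The log2 fold change was 2.35 (standard error 1.04), or 5.10-fold. Only 0.764% of detected probes of the array had as large a difference between the pools of SN-CCs, and without replicate 2 the log2 fold change of Cited2 was 0.84, or 1.80-fold.
Cited4, a coactivator of AP-2 factors, had signals of 614 and 328 (SN-CCs) against 1063 and 1039 (NSN-CCs). The groups did not overlap, and SN-CCs replicate 2 had 0.534 times the signal of replicate 1. Normalized log2 values averaged 8.86 ± 0.26 (SD, n = 2 pools) against 10.01 ± 0.033 (SD, n = 2 pools), a log2 fold change of 1.14 (standard error 0.18), or 2.21-fold, and 0.96 without SN-CCs replicate 2.
Cited1, the founding member of the family and a coactivator of SMAD4 and of the oestrogen receptor, had signals of 199 and 203 (SN-CCs) against 269 and 274 (NSN-CCs). In the deposited signals its groups did not overlap, as for 6 of the 10 detected probes (14.2% of all detected probes), but after normalization SN-CCs replicate 2 (log2 value 7.99) lay above both NSN-CCs pools (7.88 and 7.90). Its log2 fold change was thus 0.21 (standard error 0.25) with the array and 0.52 without it.

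Among the CRTC genes, which encode cAMP-regulated coactivators of CREB1, Crtc3 had signals of 274 and 176 (SN-CCs) against 421 and 533 (NSN-CCs). Normalization brought the pools of SN-CCs together, so that log2 values averaged 7.80 ± 0.050 (SD, n = 2 pools) in SN-CCs against 8.76 ± 0.25 (SD, n = 2 pools) in NSN-CCs. The log2 fold change was 0.96 (standard error 0.18), a 1.94-fold difference, and 0.92 in the absence of SN-CCs replicate 2, so that its value changed little with that array.
Crtc1, the family member first known from a gene fusion in salivary gland tumours in humans, had signals of 211 and 128 (SN-CCs) against 298 and 313 (NSN-CCs). Its groups did not overlap either, although the signal of SN-CCs replicate 2 was close to the background limit of 119. The log2 fold change was 0.83 (standard error 0.19), or 1.78-fold, and 0.63 without that array.
Crtc2, which controls gluconeogenic genes in the liver, had signals of 196 and 153 (SN-CCs) against 208 and 193 (NSN-CCs). Its groups overlapped and its log2 fold change was 0.0046 (standard error 0.14), or 0.082 without SN-CCs replicate 2. The single probes of the 3 CRTC genes thus had unlike fold changes, and a difference between the genes was not tested.

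The acetyltransferase genes had log2 values that overlapped between both types of CCs. Ep300 had signals of 1397 and 541 (SN-CCs) against 1114 and 1299 (NSN-CCs), so that SN-CCs replicate 1 was the highest array and SN-CCs replicate 2 the lowest. Its log2 fold change was 0.41 (standard error 0.36) and changed to -0.068 without SN-CCs replicate 2. Crebbp had signals of 113 and 119 (SN-CCs) against 122 and 125 (NSN-CCs), at the background limit, with a log2 fold change of -0.018 (standard error 0.16), or 0.11 without SN-CCs replicate 2.
Creb1 was covered by 6 probes, numbered here by decreasing mean level, and none was detected on all arrays. Probe 1 (ILMN_3120454) had signals of 145, 119, 129 and 121 and probe 2 (ILMN_1215890) of 134, 101, 128 and 138, in the order of SN-CCs replicates 1 and 2 and NSN-CCs replicates 1 and 2, each above the limit on 3 arrays. The log2 fold changes of these probes were -0.17 (standard error 0.14) and 0.18 (standard error 0.19). Their opposite sign rested on SN-CCs replicate 2, where both probes were below the limit, since without that array they were -0.23 and -0.017. The other 4 probes of Creb1 and 2 of the 5 probes of Crem stayed between 72.8 and 103 on all arrays, below every background limit, and carry no measured level.
Crem, which encodes activating and repressing relatives of CREB1, among them the inducible repressor ICER, had 3 detected probes. Probe 1 (ILMN_1242622) had signals of 357 and 491 (SN-CCs) against 489 and 456 (NSN-CCs), probe 2 (ILMN_2602899) of 298 and 318 against 325 and 317, and probe 3 (ILMN_2964986) of 231 and 245 against 307 and 296. In all 3 the lowest signal was that of SN-CCs replicate 1, and after normalization SN-CCs replicate 2 was the highest array. Their log2 fold changes were 0.028 (standard error 0.36), -0.15 (standard error 0.27) and 0.13 (standard error 0.27) with the array and 0.52, 0.19 and 0.48 without it. The files do not say which transcripts of Crem each probe reads.

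**Figure D2:**
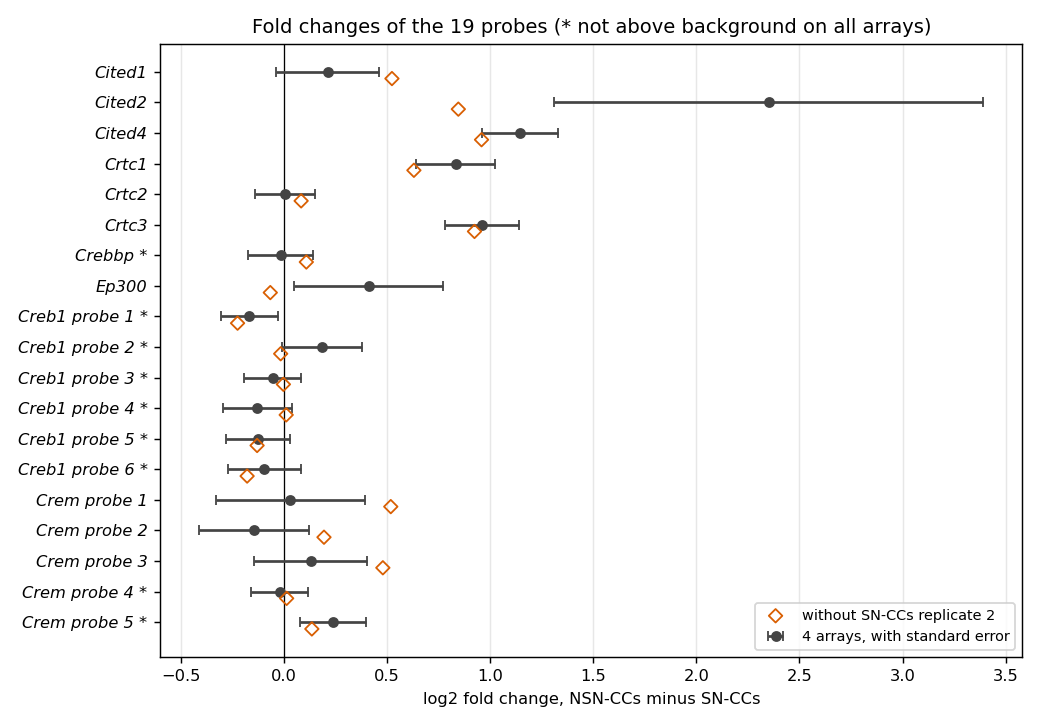
Log2 fold change (NSN-CCs minus SN-CCs) of each of the 19 probes from 4 arrays, with limma's standard error (filled circles), and without SN-CCs replicate 2 (open diamonds), where an asterisk marks a probe not above background on all 4 arrays. Cited4, Crtc1 and Crtc3 keep log2 fold changes of 0.96, 0.63 and 0.92 without that array, while Cited2 goes from 2.35 to 0.84 and Ep300 from 0.41 to -0.068.

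The members differed in how closely the pools of a type matched. Between the pools of NSN-CCs the detected probes differed by 0.021 (Cited1) to 0.35 (Crtc3) on the log2 scale. Between the pools of SN-CCs the difference ran from -3.01 in Cited2 and -0.95 in Ep300 to 0.98 in probe 1 of Crem. SN-CCs replicate 2 was below replicate 1 in 5 of the 10 probes, where it was so in 34.4% of all detected probes of the array.
The table normalized by the authors placed this array differently. Its lowest value was 182 for SN-CCs replicate 2 and 66.2 to 69.1 for the other arrays, and its medians were 222 and 124 to 125. In that table Crtc3 had 254 and 270 (SN-CCs) against 399 and 504 (NSN-CCs), Cited4 had 545 and 386 against 993 and 970, Crtc1 had 200 and 233 against 285 and 300, and Cited2 had 1348 and 249 against 2143 and 2351. For these 4 genes both NSN-CCs pools lay above both SN-CCs pools in either table, whereas the log2 fold change of Crtc1 was 0.44 in the authors' table. The 9 probes not detected on all arrays had values of 191 to 227 in SN-CCs replicate 2 there, above those of the other 3 arrays (80.8 to 144).

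**Figure D3:**
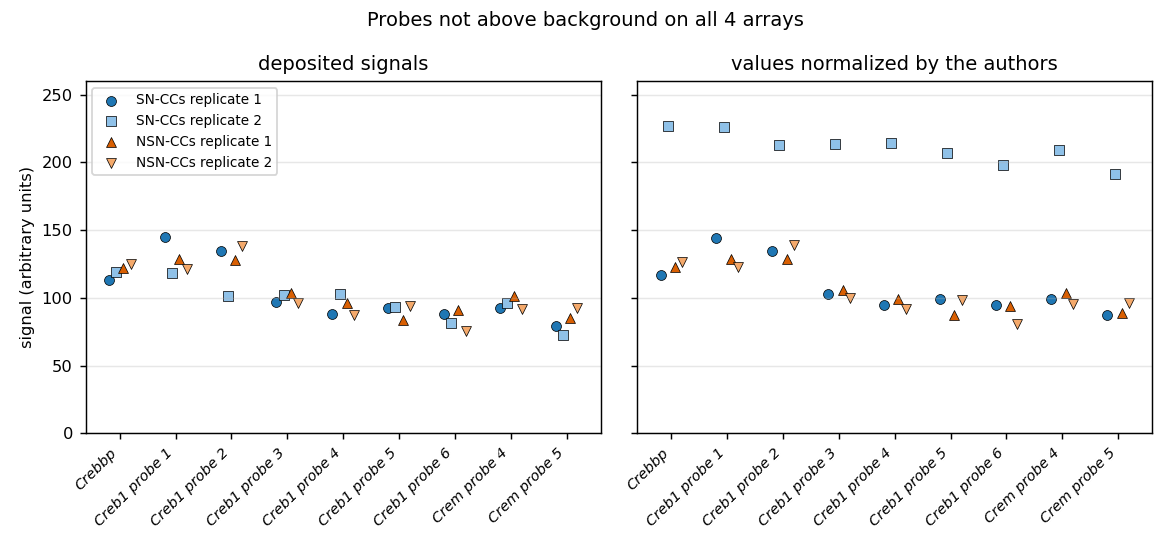
Signals (arbitrary units) of the 9 probes of Crebbp, Creb1 and Crem that were not above background on all 4 arrays, as deposited (left) and as normalized by the authors (right), with a point for each array. On the right SN-CCs replicate 2 lies at 191 to 227 for all 9 probes, above the other 3 arrays.

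The genes with the profile most like that of a member, by Euclidean distance over the 4 arrays between log2 values centred on the mean of each probe, were searched among 13076 probes of named genes above the limit on at least 2 arrays. For Cited2 they were Tmem259 (distance 0.22), Erdr1 (0.31) and Pias4 (0.32), a SUMO ligase gene with signals of 1109 and 114 (SN-CCs) against 1237 and 1642 (NSN-CCs). Each of them was far lower in SN-CCs replicate 2 than on the other arrays. For Cited4 they were Junb (0.21), a subunit of AP-1, the signalling ligand gene Wnt4 (0.23) and the small GTPase gene Rrad (0.28, signals of 201 and 112 against 306 and 290). For Crtc3 they were the transcription factor gene Klf13 (0.20, signals of 1505 and 1203 against 1986 and 2403), Rasl10a (0.24) and Apoe (0.24). These genes were found by their likeness to members chosen as higher in NSN-CCs, so that their direction was fixed by the search.

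The neighbouring genes of the pathway did not enter the choice of the members, but their lists were chosen with earlier results of these data known. Junb, the nearest profile to Cited4, is also a listed target. The genes were compared with limma over all 25697 probes, and lists were read on the brightest probe of each gene. At an adjusted p under 0.05 limma called 0 probes (0%), and 800 had an unadjusted p under 0.05 (1.09% of all probes, higher in NSN-CCs, and 2.02%, lower). This split of 281 higher and 519 lower probes was 169 and 975 after median scaling and 42 and 7 in the authors' table. In that table the median log2 fold change of all probes was -0.43, against -0.033 here, and the directions of lists there are to be read against that shift. Over the brightest probes of 16606 genes, 1.23% had an unadjusted p under 0.05 and were higher in NSN-CCs, 2.44% were lower, 40.1% had a log2 fold change above 0 and the median was -0.056 (0.00072 without SN-CCs replicate 2). No member of the lists below was called, each having an adjusted p of at least 0.811.
Among 42 cAMP and CREB target genes 29 had a log2 fold change above 0 and 13 one below it, with a median of 0.11 that was the same without SN-CCs replicate 2 (32 higher, 10 lower) but 0.031 after median scaling and -0.13 in the authors' table. In normalized log2 values both NSN-CCs pools lay above both SN-CCs pools in 18 of the 42 (42.9%, against 14.9% of all genes) and below in 3 (24.4% of all genes). The 18 include genes that were not detected: Nr4a1, Btg2, Ppargc1a and Pck1, above the limit on no array, and Nr4a3, Ptgs2 and Bdnf, above it on 2. For Ptgs2 the study reported the opposite direction, lower in NSN-CCs, when measured by quantitative PCR. The 18 also include Inha and Per1, whose log2 fold changes of 1.86 and 1.32 came to 0.037 and 0.16 without SN-CCs replicate 2. In the deposited signals the groups overlapped for Fos, Dusp1, Cyp19a1, Inha and Per1 of the 18, and for Ier2 of the 3. Fos, for example, had 17970 and 18769 (SN-CCs) against 18717 and 16331 (NSN-CCs). Genes with both NSN-CCs pools above were 6 of 20 in the CREB family (30%), 8 of 27 CRTC kinases and phosphatases (29.6%) and 9 of 30 other coactivators (30%). They were 3 of 31 CITED partners (9.68%), 2 of 19 HIF targets (10.5%) and 3 of 8 granulosa markers (37.5%). In the same order, genes with both pools below were 4, 3, 5, 6, 5 and 0. These counts are of normalized log2 values as well, and also include genes that were not detected, such as Prkaa2, above the limit on no array. The difference between lists was not tested. Of the cAMP and CREB target genes with an unadjusted p under 0.05 in limma, 3 were higher and 0 lower. They were Areg, the EGF-like ligand of the ovulatory cascade, Junb and, named after its values were seen, Cyp11a1 of steroid synthesis. Areg had signals of 2576 and 3084 (SN-CCs) against 4217 and 4374 (NSN-CCs) (log2 fold change 0.80, standard error 0.16, adjusted p = 0.811 from limma, 0.95 without SN-CCs replicate 2). Those of Junb were 5273 and 3502 against 7530 and 8078 (1.05, standard error 0.24, adjusted p = 0.811 from limma, 0.76 without that array). On the lower side were Lhcgr, the LH receptor (3417 and 6215 against 2916 and 2913, log2 fold change -0.48, and -0.070 without SN-CCs replicate 2), and Ier2 (-0.14, and -0.056 without it), whose signals of 122 to 127 were near background.

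Of 20 genes of the CREB family and related bZIP factors 11 were higher and 9 lower (median 0.0091, 0.022 without SN-CCs replicate 2, -0.14 after median scaling and -0.21 in the authors' table). The 3 with an unadjusted p under 0.05 were all higher: the stress-induced repressor gene Atf3 (signals of 1865 and 1281 against 2351 and 2093, log2 fold change 0.60), Cebpb, which acts in granulosa cells at ovulation in the mouse (13627 and 17997 against 19482 and 17361, 0.49), and, named after its values were seen, Creb5 (225 and 134 against 254 and 281, 0.51). Without SN-CCs replicate 2 these log2 fold changes were 0.44, 0.64 and 0.33. The deposited signals of Cebpb overlapped between the groups, and both NSN-CCs pools lay above both SN-CCs pools only after normalization. Creb3l4 (-0.37, and -0.19 without that array, above the limit on 2 arrays) and Creb3 (-0.33, and 0.024 without that array), which encode membrane-bound factors, were the lower genes with the smallest p.
Among 27 CRTC kinases and phosphatases and subunits of protein kinase A 20 were higher and 7 lower, with a median of 0.33 that came to 0.017 without SN-CCs replicate 2 (15 higher, 12 lower). Mark2, a kinase that phosphorylates CRTC2, had signals of 4956 and 3142 (SN-CCs) against 5863 and 5791 (NSN-CCs) (log2 fold change 0.76, and 0.44 without that array), and was the single gene of the list with an unadjusted p under 0.05. The protein kinase A subunit gene Prkar1b (0.33, and 0.30 without it) was the next higher gene, above the limit on 3 arrays, and the calcineurin catalytic subunits Ppp3cb and Ppp3cc (both -0.23, and -0.14 and -0.052 without it) were the lower ones with the smallest p.

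Other coactivators and acetyltransferases went both ways (18 of 30 higher, median 0.062, and 0.076 without SN-CCs replicate 2). Hat1, an acetyltransferase of newly made histones, had signals of 10242 and 12713 (SN-CCs) against 6929 and 7009 (NSN-CCs) (log2 fold change -0.48, standard error 0.15, and -0.37 without SN-CCs replicate 2), and was the single gene with an unadjusted p under 0.05, followed on the lower side by the Mediator subunit Med23 (-0.39, and -0.25 without that array). The higher genes with the smallest p, Ncoa6 (0.73) and the acetyltransferase gene Kat5 (1.08), had signals of 130 and 129 in SN-CCs replicate 2 against 367 to 383 and 542 to 584 on the other arrays, and log2 fold changes of 0.14 and 0.18 without it.
Of 31 partners of the CITED proteins 11 were higher and 20 lower (median -0.059, and -0.085 without SN-CCs replicate 2), and 0 had an unadjusted p under 0.05 in limma. Smad2, a mediator of activin and TGF-beta signals (660 and 524 against 512 and 488), and Pparg, a nuclear receptor of granulosa cells (4859 and 5924 against 3654 and 3561), both had a log2 fold change of -0.38 (-0.31 and -0.26 without SN-CCs replicate 2), and Myc (0.76) and the prolyl hydroxylase gene Egln1 (0.61) came to 0.21 and 0.088 without that array. Hif1a, the factor with which CITED2 competes, was not among the genes with the smallest p. Its signals were 1624 and 169 (SN-CCs) against 1289 and 1029 (NSN-CCs), lowest in SN-CCs replicate 2. The log2 fold change of Hif1a was 1.04, and -0.37 without that array. The AP-2 gene Tfap2c was above the limit on 2 arrays and Tfap2a, Tfap2b, Tfap2d and Tfap2e on none.
Among 19 HIF target genes 8 were higher and 11 lower (median -0.097, and -0.041 without SN-CCs replicate 2). Those with an unadjusted p under 0.05 were both lower in NSN-CCs: Vegfa, the vascular growth factor (3685 and 4831 against 2364 and 2488, log2 fold change -0.64), and P4ha2, a collagen prolyl hydroxylase (645 and 622 against 439 and 463, -0.64), at -0.46 and -0.44 without SN-CCs replicate 2. The stress-response gene Ddit4 (0.35, and 0.36 without that array) and Adm (0.18, and 0.10 without it, above the limit on no array) were the higher ones with the smallest p.

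**Figure D4:**
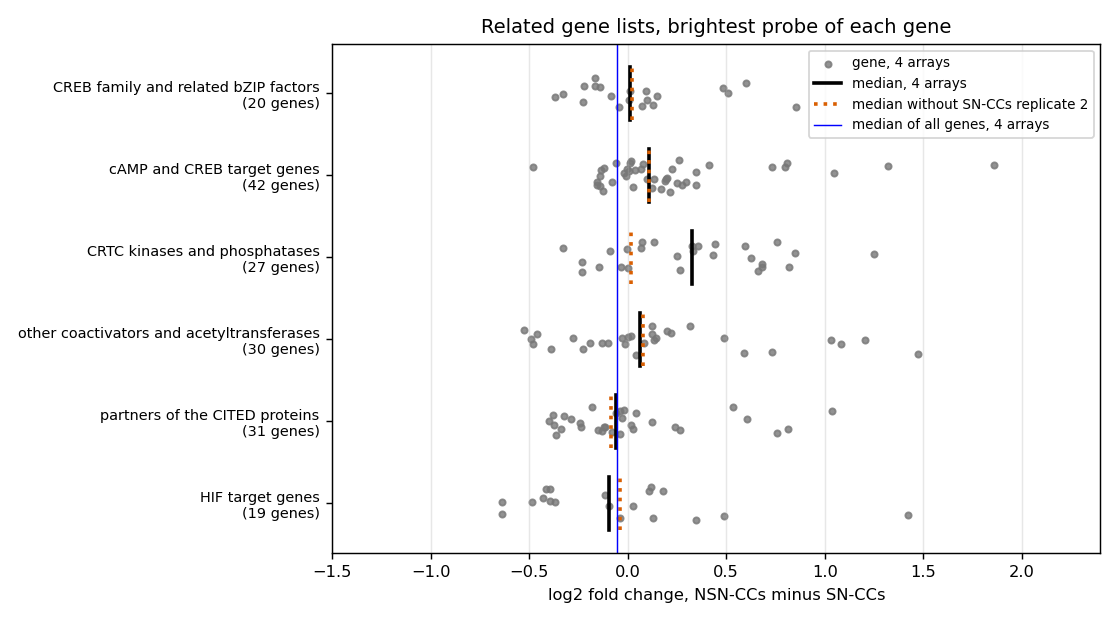
Log2 fold change (NSN-CCs minus SN-CCs) of the brightest probe of each gene in 6 lists (grey points), with the median over 4 arrays (black), the median without SN-CCs replicate 2 (orange, dotted) and the median of all genes (blue line, -0.056). The median of the cAMP and CREB target genes is 0.11 in both settings (-0.13 in the authors' table), while that of the CRTC kinases and phosphatases goes from 0.33 to 0.017.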

How the data were processed

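Gene expression was measured on Illumina mouse BeadChips in 2 SN-CCs pools and 2 NSN-CCs pools, grouped by the titles. The authors' first deposited table holds intensities of 25697 probes summarised with BeadStudio (version 3 in the submitters' processing notes), linear and still with background. Their second deposited table holds intensities after background subtraction and rank invariant normalization. Neither holds detection p-values or control beads, so normexp ran on all probes (offset 50), followed by quantile normalization, log2 and the lmFit and eBayes steps of limma 3.58.1 under R 4.3.3 (no covariates, Benjamini-Hochberg over all probes). No depth applies, and 2 arrays in each group limit the precision, since an exact two-sided permutation test could not go below p = 0.333. The script was tested on simulated data. A total of 23978 probes had 1 gene symbol in the annotation, updated through the RefSeq gene table of GRCm38.p6, and 26 took theirs from the signal table.

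The members, the lists and the background limit were chosen with earlier results of these data known. All members were named, with the 2 higher and 2 lower genes of the smallest p in each list and the 3 nearest profiles of Cited2, Cited4 and Crtc3. Alternatives covered background correction, scaling, the authors' table, a filter on dim probes, each array left out, the replicate number as a block, and every probe of a gene. Leaving out SN-CCs replicate 2 before normalization was added after seeing the data. The replicate numbers 1 and 2 are shared by both types of CCs, but neither labels nor methods tie pools of different types to each other.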

Additional observations from a re-analysis of the deposited data

How the results depend on the processing

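With 2 arrays in each group, p-values measure the spread between pools only, and probes near background have no measured change. Over all probes 0 were called, and 9582 without SN-CCs replicate 1, a setting in which SN-CCs replicate 2 alone stands for SN-CCs. Leaving out arrays gave 0 to 9582 called probes. Without SN-CCs replicate 2, before or after normalization, 1 probe was called, that of Amh, the anti-Müllerian hormone.
Leaving out 1 array each moved the median of the detected members between 0.25 and 0.52, that of the CRTC kinases and phosphatases between 0.017 and 0.63 and that of the HIF targets between -0.22 and -0.041. The genes called in the lists under these settings ran from 0 to 13 (cAMP and CREB targets), 0 to 8 (CREB family), 0 to 18 (CRTC kinases and phosphatases), 0 to 17 (other coactivators), 0 to 14 (CITED partners) and 0 to 12 (HIF targets), with the highest numbers without SN-CCs replicate 1. With SN-CCs replicate 2 left out before normalization the medians were 0.52, 0.011 and -0.044 for the members, the CRTC kinases and phosphatases and the HIF targets.
In the authors' table the medians were -0.13 for the cAMP and CREB targets and -0.21 for the CREB family, which both turned their sign, 0.019 for the CRTC kinases and phosphatases and -0.39 for the HIF targets, and the cause was not tested. Among the 10 detected member probes the sign changed in 2 without SN-CCs replicate 2 (Ep300 and probe 2 of Crem), in 4 without SN-CCs replicate 1, in 2 without NSN-CCs replicate 1 and in 1 in the authors' table.
The replicate number as a block called 0 probes and left the median of the members at 0.31. Deviations of arrays with the same number correlated at r = 0.046 across 10596 detected probes, which are not independent replicates. With 2 arrays of each type both numbers give the same r by construction, so it cannot decide whether pools were paired. The numbers were not taken to pair the pools because neither labels nor methods tie them. All other settings run gave 0 called probes and list medians within the spread between pools.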
